A study of Mus musculus with 5 samples.

Results

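The genes described here are Wfikkn2 and 9 other genes of the activin and myostatin pathway, 10 of the 54532 genes in a deposited table of read counts from mouse small cell lung cancer. They were taken by gene name and comprise the extracellular antagonists Wfikkn2, Wfikkn1, Fst and Fstl3, the ligands Gdf11, Mstn, Inhba and Inhbb, and the type II receptors Acvr2a and Acvr2b. All 10 were found once each, and 9 passed the filter on low counts, the exception being Mstn. Wfikkn2 was chosen because earlier results of these same data had it among the genes higher with treatment, so its values and those of the other 9 in the same contrast are given as a description, with no test and as support for nothing. Gene expression was measured by bulk RNA-seq in 3 tumours treated with LSN, an Aurora A kinase inhibitor according to the study's own description, and in 2 tumours labelled vehicle. Both groups carried the genotype RPP, whose letters the labels do not expand, and all 5 samples were lung tumours frozen at necropsy. The sources used here give no strain, no age, no dose and no duration of treatment. The labels do not say whether each tumour came from its own animal, nor that any group shares a clone or a pool.

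Activins, myostatin and GDF11 are secreted dimers of the TGF-beta family. They bind a type II receptor, which recruits and phosphorylates a type I receptor, and the type I receptor then phosphorylates Smad2 and Smad3, which enter the nucleus with Smad4. Follistatin and its relatives hold the ligands in complexes outside the cell. The WFIKKN proteins, also known as GASPs, carry a follistatin-like domain beside WAP, immunoglobulin, Kunitz and netrin domains and bind myostatin and GDF11. The pathway is best known from skeletal muscle, where myostatin limits muscle mass, and from the pituitary and gonads, where activins and inhibins regulate follicle-stimulating hormone.

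Total counts lay between 17439049 and 19766604 per tumour. A count of 3, used as the floor, stood for 0.159 to 0.167 CPM (reads per 1000000 reads, scaled by TMM), which covers counting error only. All 10 neuroendocrine markers had reads in every tumour, with a summed level of 4691, 7838 and 5198 CPM in LSN replicates 1, 2 and 3, against 6555 and 2374 CPM in vehicle replicates 1 and 2. Normal lung epithelium markers summed to 1916, 379 and 1220 CPM in the LSN tumours, against 6553 and 8717 CPM in the vehicle tumours. Of these 11 markers, 9 were lower in every LSN tumour than in both vehicle tumours, and so were 9 of the 10 endothelial markers. The same held for 10.4% of all genes tested. In bulk tissue, fewer cells of a type and less RNA per cell cannot be told apart.

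**Figure D1:**
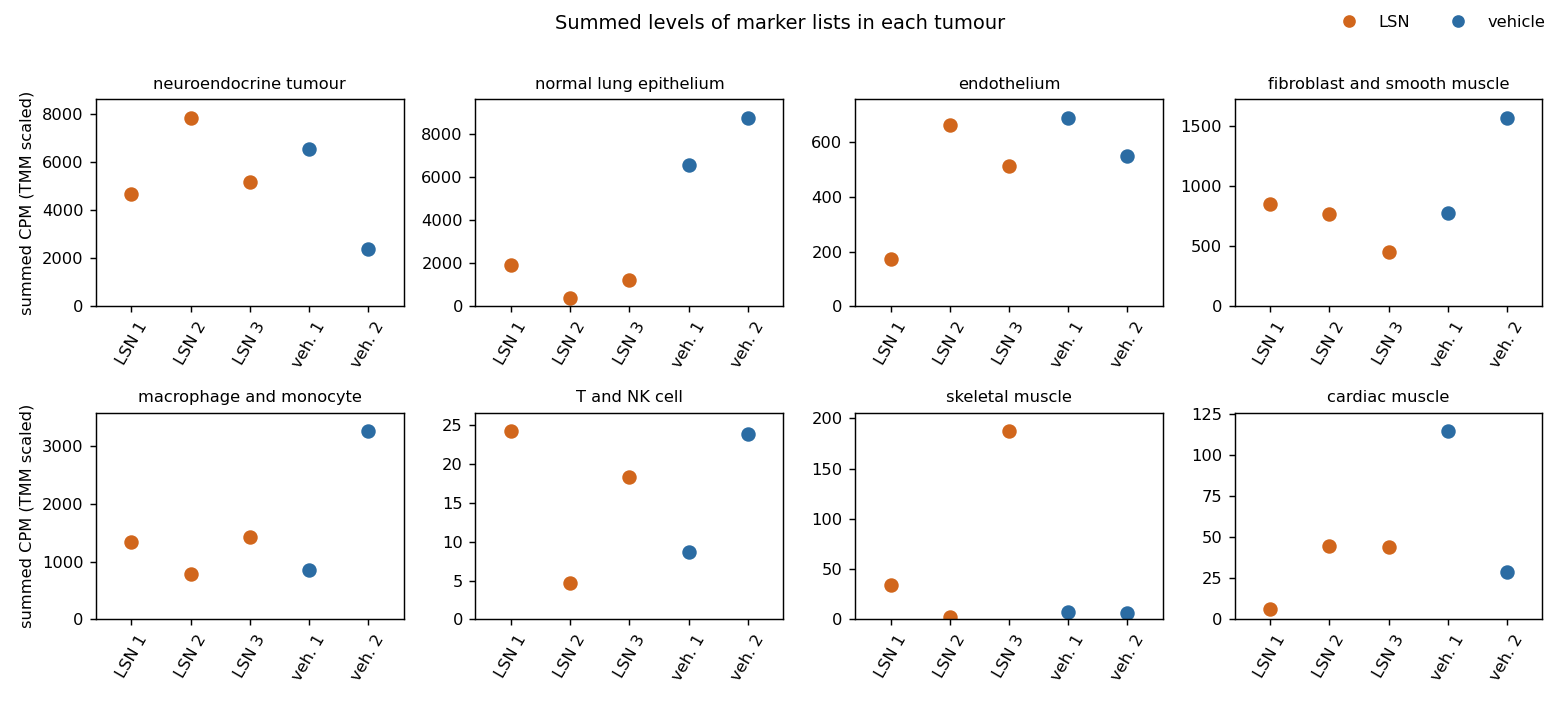
Summed CPM (vertical axes, TMM scaled) of marker lists in the 3 LSN tumours (orange) and the 2 vehicle tumours (blue), a point per tumour, with the muscle list split into its 7 skeletal and 3 cardiac genes. The normal lung sums of the LSN tumours lie between 379 and 1916 CPM, below both vehicle tumours, and the skeletal muscle sum is highest in LSN replicate 3, at 187 CPM.

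Among the antagonists, Wfikkn2 had 204, 230 and 235 reads in LSN replicates 1, 2 and 3, against 15 and 23 reads in vehicle replicates 1 and 2. The LSN tumours lay close together and far above both vehicle tumours. In CPM the levels were 11.3, 12.3 and 12.4 with LSN, against 0.807 and 1.28 with vehicle, or 12.01 ± 0.648 (SD, n = 3) against 1.05 ± 0.337 (SD, n = 2). The fitted log2 fold change of LSN over vehicle was 3.51 ± 0.55 (SE, edgeR), an 11.4-fold difference. Over the settings tried it was lowest without vehicle replicate 1, at 3.23 by edgeR and 3.24 by DESeq2, and highest without vehicle replicate 2, at 3.89 by edgeR and 3.91 by DESeq2. Of the 17906 genes tested, 27 had a log2 fold change at least as large, Wfikkn2 included.

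Wfikkn2 lies on the minus strand of chromosome 11, at 94235956 to 94246005 (mm10), and its coding transcript in GENCODE M21 has 2 exons. No other gene of that annotation overlaps it, so that its reads cannot belong to an antisense partner listed there. The bases before the first exon of that transcript are shown because Wfikkn2 is the gene whose level separated the tumours. The sequence comes from RefSeq (GRCm38.p6, chr11:94242708-94242829, minus strand, 122 bases, written 5′ to 3′), and capitals mark an E-box. It is the far end of the 250 bases before the RefSeq start site, at 94242579, and ends 129 bases from that site, because the first exon of GENCODE M21 begins before it and the bases from there on are not shown. It lies within the annotated span of the gene and outside its exons.
Wfikkn2: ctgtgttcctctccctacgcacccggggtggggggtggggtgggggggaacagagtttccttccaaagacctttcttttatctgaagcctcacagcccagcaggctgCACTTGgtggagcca
The motifs searched, on both strands, were the E-box CANNTG, bound by basic helix-loop-helix factors, the Smad box CAGAC and the TATA box TATAAA. The E-box was found 1 time, starting at base 108, and overlapped neither of the others, which were not found in these letters. Among 32851 RefSeq promoters, 42.4% held an E-box, 23.9% the Smad box and 6.12% the TATA box in the same 122 bases of the promoter window.

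**Figure D2:**
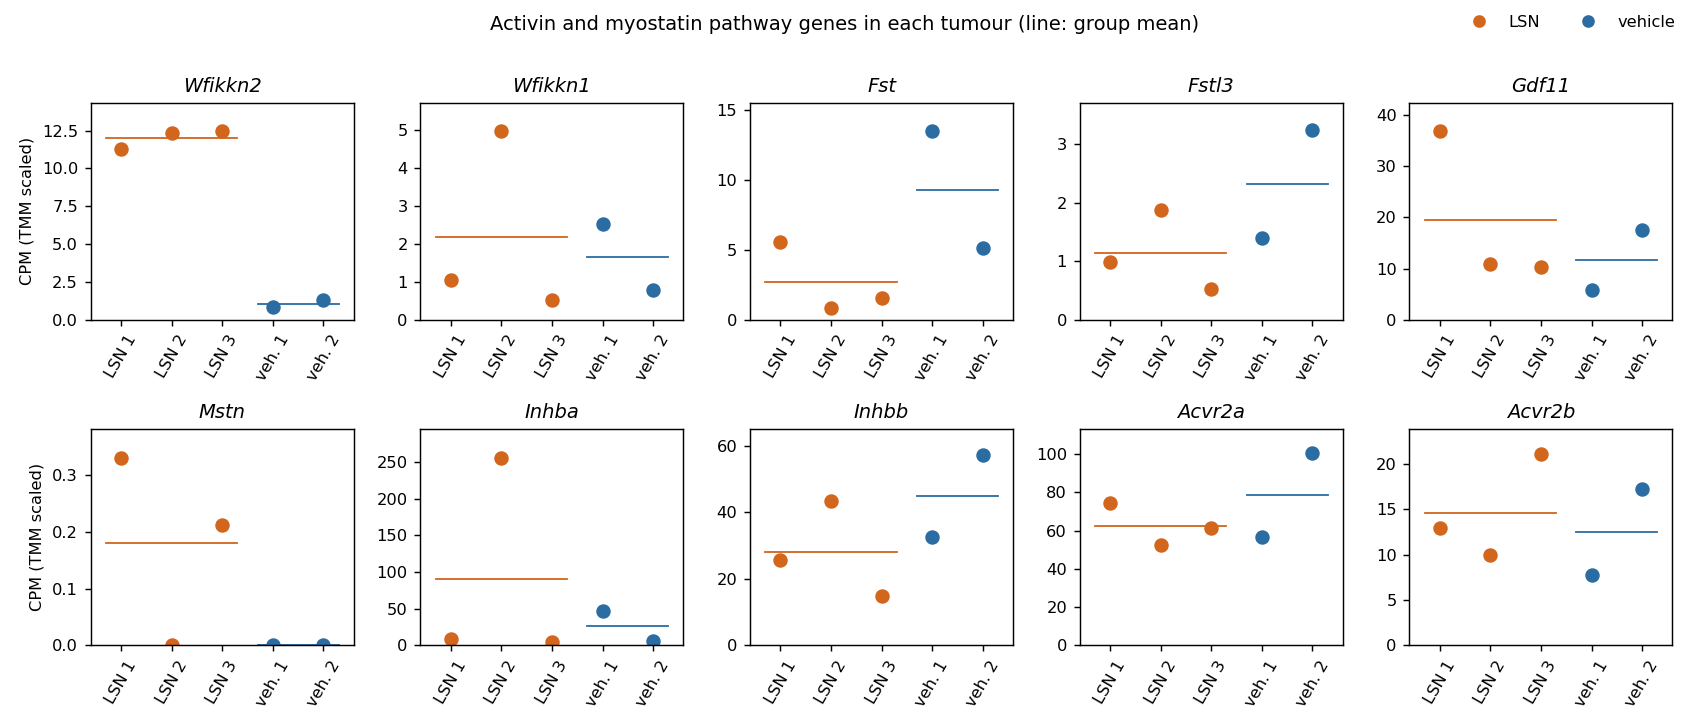
CPM (vertical axes, TMM scaled, each from 0) of the 10 pathway genes in the 3 LSN tumours (orange) and the 2 vehicle tumours (blue), with a point per tumour and a line at each group mean. Wfikkn2 is at 11.3 to 12.4 CPM in every LSN tumour and at 0.807 and 1.28 CPM with vehicle, whereas the points of the other genes overlap between the groups or, for Mstn, stand on 0 to 6 reads.

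Set against the neuroendocrine markers, Wfikkn2 had 24.0, 15.7 and 23.9 reads per 10000 reads of these markers in the LSN tumours, against 1.23 and 5.41 in the vehicle tumours. The groups remained apart on that scale, on which 0.642% of all genes tested had every LSN tumour above both vehicle tumours. Normal lung and endothelial markers moved with the groups as given above, and their part in the level of Wfikkn2 was not tested. Skeletal muscle genes summed to 34.6, 2.73 and 187 CPM in the LSN tumours, against 7.80 and 6.14 CPM in the vehicle tumours. The part of muscle tissue in the level of Wfikkn2 was not tested.

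Wfikkn1, the closest relative of Wfikkn2 and also a binder of myostatin and GDF11, did not share its pattern. It was at 1.05, 4.98 and 0.529 CPM in the LSN tumours, against 2.53 and 0.782 CPM in the vehicle tumours, with LSN replicate 2 highest and groups that overlapped. Its log2 fold change of 0.40 ± 1.16 (SE) rested on that tumour, being -1.07 without LSN replicate 2 and 1.49 without vehicle replicate 1, and it was also below 0 without vehicle replicate 2 and by limma-voom. A lincRNA, Gm26694, overlaps the span of Wfikkn1 on the other strand, with 13 to 43 reads per tumour. Since the kit keeps no strand, reads from any exon stretch that the pair shares cannot be told apart. How much the exons of the pair share was not examined.

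Follistatin, encoded by Fst and the best studied activin antagonist, stood at 5.58, 0.857 and 1.54 CPM in the LSN tumours, against 13.4 and 5.14 CPM in the vehicle tumours. The groups overlapped only through LSN replicate 1, which was just above vehicle replicate 2. The log2 fold change was -1.80 ± 0.96 (SE), and it was -2.95 without LSN replicate 1 and -0.94 without vehicle replicate 1. Fibroblast and smooth muscle markers, of cells that can express Fst, summed to 851, 769 and 451 CPM with LSN, against 771 and 1560 CPM with vehicle, and their part in the level of Fst was not tested.

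Fstl3, which encodes a follistatin-like protein that binds activins and myostatin, was scarce in every tumour, with 18, 35 and 10 reads in the LSN tumours, against 26 and 58 reads in the vehicle tumours. LSN replicate 2 lay above vehicle replicate 1, so the groups overlapped. The log2 fold change was -1.03 ± 0.79 (SE), and leaving out single tumours gave values between -1.60 (without LSN replicate 2) and -0.30 (without vehicle replicate 2). Genes on the other strand of Fst, Fstl3 and Acvr2b had at most 3 reads in any tumour.

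The share of Wfikkn2 among the antagonists differed more between tumours than their total. Per kilobase of gene model, the scale on which genes can be compared, the 4 antagonists summed to 5.10, 6.69 and 4.07 CPM per kilobase in the LSN tumours, against 4.99 and 3.17 in the vehicle tumours, so the sums overlapped. Wfikkn2 made up 57.8, 48.1 and 79.9% of that sum with LSN, against 4.23 and 10.6% with vehicle. The ratio of Wfikkn2 to Wfikkn1 on the same scale was 5.56, 1.28 and 12.2 in the LSN tumours, against 0.165 and 0.850 in the vehicle tumours. Per length, Wfikkn2 thus stood above Wfikkn1 in all 3 LSN tumours and below it in both vehicle tumours. In vehicle replicate 2 the levels were close, at 0.335 and 0.395 CPM per kilobase. They rested there on 23 reads of Wfikkn2 and 14 of Wfikkn1, too few to settle the order. Wfikkn2 was chosen for this contrast, so nothing is read from its share or its ratio to Wfikkn1.

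Among the ligands, Inhba, which encodes the subunit of activin A, varied most. It was at 9.001, 256 and 4.71 CPM in LSN replicates 1, 2 and 3, against 47.3 and 6.53 CPM in the vehicle tumours. A single tumour, LSN replicate 2, was far above the others, and the highest level was 54.3 times the lowest. The log2 fold change of 1.74 ± 1.92 (SE) was decided by that tumour and was -1.98 without it, while it was 3.79 without vehicle replicate 1 and 0.32 by limma-voom, and DESeq2 left Inhba without a p-value. Genes on the other strand of Inhba, Gm48444 and B230303A05Rik, had at most 6 reads in any tumour. The promoter is shown because this gene had the widest range among those detected in all 5 tumours. It is taken from RefSeq (GRCm38.p6, chr13:16011601-16011850, plus strand, 250 bases, written 5′ to 3′), and capitals mark a TATA box.
Inhba: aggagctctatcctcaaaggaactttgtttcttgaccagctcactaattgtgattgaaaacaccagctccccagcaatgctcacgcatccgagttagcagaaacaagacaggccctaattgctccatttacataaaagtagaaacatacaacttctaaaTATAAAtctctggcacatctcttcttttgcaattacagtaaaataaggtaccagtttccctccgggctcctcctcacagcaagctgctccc
The TATA box began at base 160, and neither the E-box CANNTG nor the Smad box CAGAC was found in these letters. In windows of the same length, 12.4% of all promoters held the TATA box, 66.2% an E-box and 42.2% the Smad box. Promoters were found for 9 of the 10 genes, the exception being Fst.

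Inhbb, which encodes the subunit of activin B, was at 25.6, 43.5 and 14.98 CPM in the LSN tumours, against 32.5 and 57.1 CPM in the vehicle tumours. LSN replicate 2 lay between the vehicle tumours. The log2 fold change was -0.68 ± 0.52 (SE), and leaving out single tumours gave values between -1.14 (without LSN replicate 2) and -0.21 (without vehicle replicate 2). Per length, Inhba made up 19.0, 79.7 and 17.3% of the sum of both subunits with LSN, against 49.2 and 7.08% with vehicle, so that Inhba exceeded Inhbb in LSN replicate 2 only. Inha, which encodes the alpha subunit that turns the beta subunits into inhibins, was at 11.9, 23.7 and 18.8 CPM with LSN, against 18.9 and 9.27 CPM with vehicle, again with overlap.

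Gdf11, a ligand close to myostatin in sequence that patterns the embryonic axis, was at 37.0, 10.9 and 10.3 CPM in the LSN tumours, against 5.81 and 17.6 CPM in the vehicle tumours. LSN replicate 1 was highest, and the other LSN tumours lay between the vehicle tumours. The log2 fold change was 0.73 ± 0.82 (SE), and it was -0.15 without LSN replicate 1, 0.15 without vehicle replicate 1 and 1.74 without vehicle replicate 2. Myostatin itself, the gene Mstn, had 6, 0 and 4 reads in LSN replicates 1, 2 and 3, against 0 and 0 reads in the vehicle tumours, where a count of 0 allows up to 0.161 and 0.167 CPM. No fold change is given at these counts. The skeletal muscle sum was highest in the LSN tumours that held reads of Mstn, at 34.6 and 187 CPM, against 2.73 CPM in LSN replicate 2 and 7.80 and 6.14 CPM with vehicle. The 3 cardiac genes of the muscle list did not share that order. They summed to 6.18, 44.9 and 44.3 CPM with LSN, against 114 and 28.9 CPM with vehicle. Of the 10 genes of the muscle list, 3 lacked reads in LSN replicate 2, 2 in vehicle replicate 1 and 1 in vehicle replicate 2. The part of muscle tissue in the reads of Mstn was not tested.

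The type II receptors varied least. Acvr2a, a receptor of activins that also binds myostatin, was at 74.2, 52.3 and 61.4 CPM in the LSN tumours, against 56.9 and 101 CPM in the vehicle tumours, and its highest level was 1.93 times its lowest. Acvr2b, the receptor with the stronger binding of myostatin, was at 12.9, 9.91 and 21.02 CPM with LSN, against 7.74 and 17.2 CPM with vehicle. The groups overlapped for both genes, with log2 fold changes of -0.33 ± 0.33 (SE) for Acvr2a and 0.23 ± 0.56 (SE) for Acvr2b. These directions depended on single tumours, being 0.14 for Acvr2a without vehicle replicate 2, and -0.13 and -0.23 for Acvr2b without LSN replicate 3 and without vehicle replicate 1. Acvr2a exceeded Acvr2b per length by 3.98, 3.64 and 2.02 times in the LSN tumours, against 5.08 and 4.04 times in the vehicle tumours. Orc4, a gene of the replication origin complex, overlaps the span of Acvr2a on the other strand and had 849 to 1630 reads per tumour. Without strand, reads from any exon stretch that both genes share cannot be told apart. How much the exons share was not examined.

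**Figure D3:**
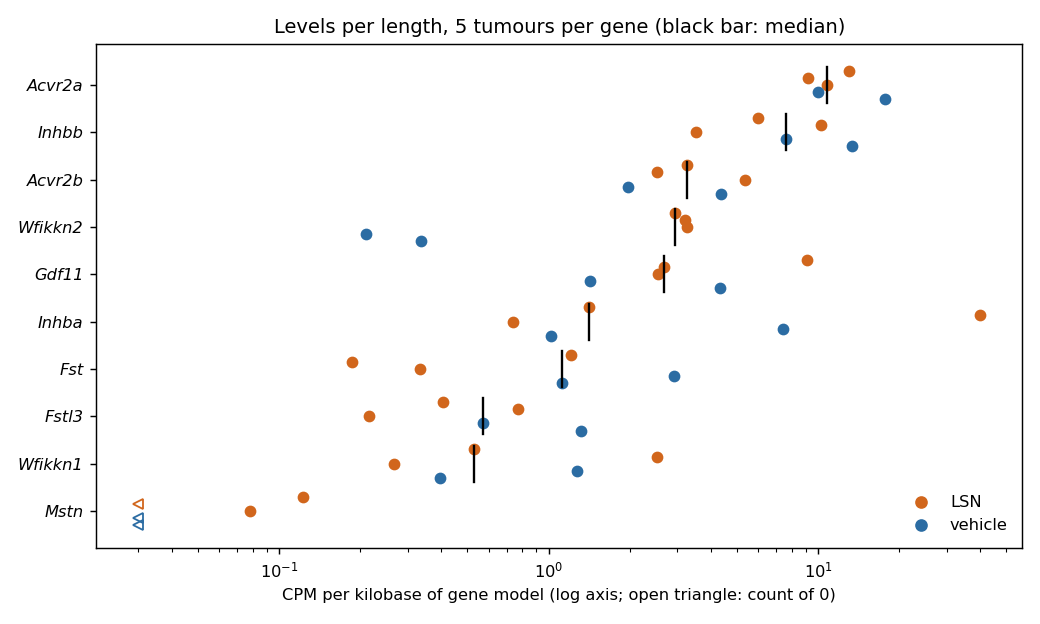
Level of each pathway gene in CPM per kilobase of gene model (horizontal log axis) in the 3 LSN tumours (orange) and the 2 vehicle tumours (blue), ordered by the median over the 5 tumours (black bar). Acvr2a is at the top with a median of 10.8, and Wfikkn2 splits into LSN tumours at 2.94 to 3.25 and vehicle tumours at 0.211 and 0.335.

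Ordered by the median over all 5 tumours, Acvr2a was highest at 10.8 CPM per kilobase, followed by Inhbb at 7.63, Acvr2b at 3.28, Wfikkn2 at 2.94, Gdf11 at 2.69, Inhba at 1.41, Fst at 1.12, Fstl3 at 0.572, Wfikkn1 at 0.530 and Mstn at 0. The range over tumours of each gene overlapped that of the next in this order, apart from Wfikkn1 and Mstn. The 4 ligands summed to 16.6, 52.9 and 6.88 CPM per kilobase in the LSN tumours, against 16.5 and 18.8 in the vehicle tumours, and the receptors to 16.3, 11.7 and 16.2 in the LSN tumours, against 11.98 and 22.1 in the vehicle tumours.

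By the quasi-likelihood test of edgeR with Benjamini-Hochberg adjustment, 0 of the 9 tested members passed an adjusted p of 0.05, as did 0% of all 17906 genes. limma-voom also called 0 members. At an unadjusted p under 0.05 there was 1 member, Wfikkn2, higher with LSN, beside 1.06% of all genes higher and 3.21% lower. DESeq2, the tool named in the labels, gave 8 members an adjusted p and called 1, Wfikkn2, beside 0.0714% of all genes called higher and 0.413% called lower, and without LSN replicate 1 it also called Fst. DESeq2 called 95 genes in all, 0.485% of those with an adjusted p, with 468 without LSN replicate 1, 40 without LSN replicate 3 and 37 without vehicle replicate 2. Wfikkn2 was the 1 member with every LSN tumour above both vehicle tumours, as were 8.48% of all genes tested, and 0 members lay below in every LSN tumour, as did 10.4% of all genes. Since the choice of Wfikkn2 used this contrast, nothing is read from these counts. The other 8 tested members had 4 log2 fold changes above 0 and 4 below.

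The other genes of the pathway, in 7 lists drawn up from general knowledge, were tested in the same fit. By edgeR and by DESeq2, 0 genes of these lists had an adjusted p under 0.05. In the list of type I and other receptors, 2 of 11 genes reached an unadjusted p under 0.05 by edgeR, both lower with LSN. Of all genes tested, 3.21% were lower at that threshold. The median log2 fold change of the list was -0.08, beside 0.03 for all genes tested. Acvr1b, the type I receptor of activins, was at 44.3, 52.7 and 53.2 CPM with LSN, against 52.6 and 53.5 CPM with vehicle. Tgfbr1, which serves TGF-beta as well as myostatin and GDF11, was at 168, 112 and 109 CPM with LSN, against 124 and 135 CPM with vehicle, and Acvr1c, a type I receptor of activin B and Nodal, was at 1.23 to 3.28 CPM in all tumours. The genes with unadjusted p-values under 0.05 were Eng and Acvrl1, a co-receptor and a type I receptor of endothelial cells. Bmpr1b, a type I receptor of BMPs, was also lower in every LSN tumour, at 2.32, 1.07 and 0.582 CPM, against 3.71 and 4.13 CPM with vehicle. Eng was at 22.6, 18.8 and 12.6 CPM with LSN, against 37.6 and 57.2 CPM with vehicle (edgeR, log2 fold change -1.40 ± 0.37 SE, unadjusted p = 0.0111, adjusted p = 0.9996). Endothelial markers were lower in the same tumours, 9 of 10 in every LSN tumour. Their sums, of 174 to 663 CPM with LSN, against 550 and 688 CPM with vehicle, overlapped. The remaining marker, Vwf, was a large part of these sums in some tumours. It was at 52.4, 540 and 425 CPM with LSN, against 439 and 49.5 CPM with vehicle. None of the endothelial markers was at 0, and their part in the levels of Eng and Acvrl1 was not tested.

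Of the 8 Smad genes, all tested, 6 had log2 fold changes below 0, and the median was -0.16, with a range of -0.36 to 0.07 over the settings tried. Smad7, an inhibitor of the pathway that Smad signalling itself induces, was at 18.6, 14.2 and 14.0 CPM in the LSN tumours, against 24.0 and 36.1 CPM in the vehicle tumours, with groups that did not overlap (edgeR, log2 fold change -0.94 ± 0.35 SE, unadjusted p = 0.0384, adjusted p = 0.9996). Smad3, which carries the signal of activins and myostatin, was at 7.23, 3.81 and 7.94 CPM with LSN, against 9.04 and 14.5 CPM with vehicle, also without overlap. Smad6, an inhibitor of the BMP branch, was the third gene lower in every LSN tumour, at 4.36, 3.06 and 3.71 CPM, against 10.3 and 4.97 CPM. Of all genes tested, 10.4% were lower in every LSN tumour. Smad2, at 76.0, 42.9 and 73.1 CPM with LSN, against 65.6 and 84.5 CPM with vehicle, and Smad4, the common partner, with a log2 fold change of -0.05 ± 0.37 (SE), overlapped.

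Genes that Smad2 and Smad3 can induce mostly had negative log2 fold changes. Of the 12 genes, 11 had a log2 fold change below 0, where 53.2% of all genes tested were above 0. Their median was -0.49, beside 0.03 for all genes tested, and lay between -0.83 and -0.37 over the settings tried. Only 2 of the 12 were lower in every LSN tumour, beside 10.4% of all genes tested. Their summed level was 748, 912 and 827 CPM in the LSN tumours, against 1090 and 1411 CPM in the vehicle tumours. Col1a1, a collagen, was at 150, 190 and 92.2 CPM with LSN, against 190 and 401 CPM with vehicle. Cdkn1a, also a large part of these sums, was at 221, 205 and 492 CPM with LSN, against 483 and 346 CPM with vehicle. The groups overlapped for both genes. By edgeR, 0 of the 12 passed an adjusted p of 0.05, and 1, Smad7, had an unadjusted p under 0.05. Col1a1 is also among the fibroblast markers, of which 4 of 11 were lower in every LSN tumour, beside 10.4% of all genes tested. The part of stromal tissue in these levels was not tested.

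The remaining lists held other ligands of the TGF-beta family, genes that act on ligands outside the cell, and inhibitors that share domains with Wfikkn2. Of the 11 other ligands tested, 6 had log2 fold changes above 0 and 5 below. Gdf15, a stress-induced ligand with its own receptor, was at 3.31, 2.73 and 6.04 CPM with LSN, against 13.9 and 6.20 CPM with vehicle. Bmp4 and Bmp6 had log2 fold changes of -1.06 ± 0.72 and -1.32 ± 0.74 (SE). Among 9 tested antagonists of the wider family, 6 were below 0, with a median of -0.21. Cer1, an antagonist of Nodal and BMPs, was at 0.828, 89.8 and 45.4 CPM with LSN, against 27.1 and 0.670 CPM with vehicle. Fstl1, a distant relative of follistatin, was at 87.5, 79.3 and 88.5 CPM with LSN, against 78.6 and 118 CPM with vehicle.

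Among 5 tested proteases that release or activate the ligands, 3 had log2 fold changes below 0. Furin, which cuts ligand precursors, was at 42.3, 76.4 and 56.0 CPM with LSN, against 70.0 and 67.4 CPM with vehicle. Pcsk5, a protease that cuts the precursor of GDF11, was lower in every LSN tumour, at 11.8, 2.30 and 5.67 CPM, against 13.4 and 25.7 CPM with vehicle. Tll1, of the tolloid family that frees myostatin and GDF11 from their propeptides, was at 18.3, 23.4 and 7.78 CPM with LSN, against 9.04 and 3.57 CPM with vehicle, and LSN replicate 3 fell between the vehicle tumours. Other inhibitors with WAP or Kunitz domains, which Wfikkn2 shares, had a median log2 fold change of -1.04 over 8 tested genes, 5 of them below 0 and 3 above. That median was -0.67 without vehicle replicate 1 and -0.56 without vehicle replicate 2. Wfdc2, a WAP protein of airway epithelium, was at 67.4, 62.7 and 125 CPM with LSN, against 219 and 161 CPM with vehicle. The Kunitz inhibitors Tfpi and Tfpi2, at log2 fold changes of -1.21 ± 0.51 and -2.17 ± 0.82 (SE), were also lower in every LSN tumour. Tfpi2 stood on only 6, 9 and 6 reads with LSN, against 12 and 50 reads with vehicle. Of all genes tested, 10.4% were lower in every LSN tumour. Normal lung markers were lower in the same tumours, and their part in the level of Wfdc2 was not tested.

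**Figure D4:**
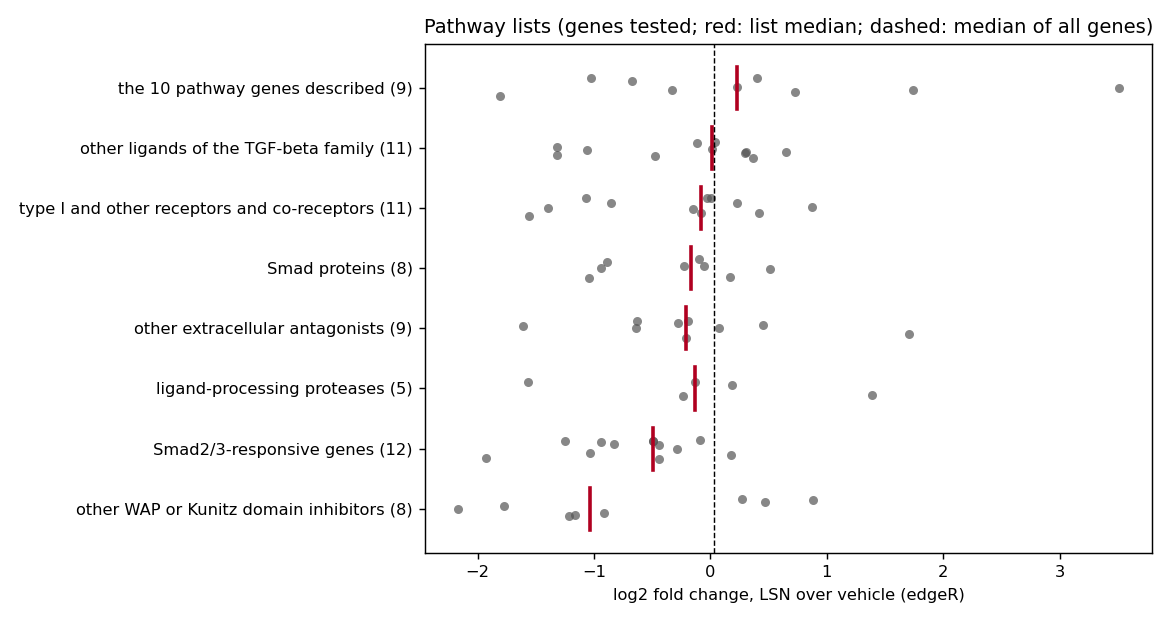
Log2 fold change of LSN over vehicle (horizontal axis, edgeR) of each tested gene of the 10 pathway genes described and of 7 further lists, a point per gene with the number tested in brackets, the list median in red and the median of all genes dashed. Wfikkn2 is the point at 3.51, and the lists with the lowest medians are the Smad2/3-responsive genes at -0.49 and the WAP or Kunitz domain inhibitors at -1.04.

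Wfikkn2 lies on the chromosome that held many genes with higher levels in the LSN tumours. Of the 1421 other tested genes of chromosome 11, 25.8% had every LSN tumour above both vehicle tumours, beside 8.48% of all genes tested. Their median log2 fold change was 0.34, where the medians of the other chromosomes lay between -0.16 and 0.20. Within 500 kb of the start of Wfikkn2, 21 genes were tested, of which 18 had a log2 fold change above 0 and 4 had every LSN tumour above both vehicle tumours, with a median of 0.31. By edgeR and by DESeq2, 0 of these neighbours passed an adjusted p of 0.05. The nearest were Tob1, an antiproliferative protein, at 0.78 ± 0.36 (SE), and B230206L02Rik at 1.04 ± 0.74 on the side of lower coordinates, and the splicing gene Luc7l3 at 0.03 ± 0.35 and Ankrd40 at 0.19 ± 0.21 on the other. The largest log2 fold change among the neighbours was that of B230206L02Rik. Wfikkn2 was at 3.51, but since it was chosen for this contrast, nothing is read from its distance to them. The median deviation of chromosome 11 genes from their mean over tumours was 0.20, -0.07 and 0.25 on the log2 scale in LSN replicates 1, 2 and 3, against -0.17 and -0.16 in the vehicle tumours. The part of the chromosome-wide difference in the level of Wfikkn2 was not tested.

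**Figure D5:**
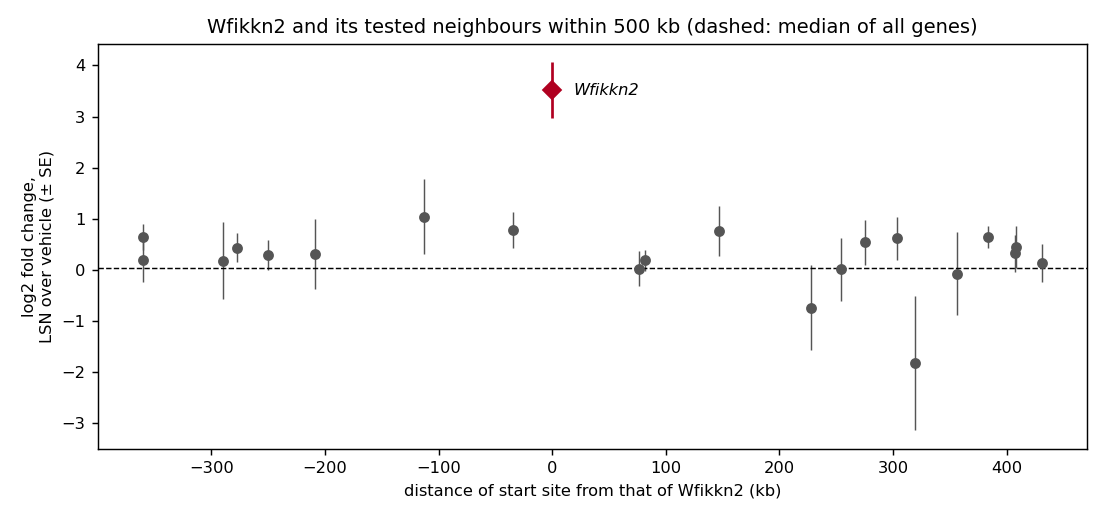
Log2 fold change of LSN over vehicle (vertical axis, edgeR, bars are SE) of Wfikkn2 (red) and of the 21 tested genes whose start lies within 500 kb (grey), against the distance of their start from that of Wfikkn2 in kb. The neighbours lie between -1.82 and 1.04, and Wfikkn2 is at 3.51.

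The genes whose levels over the 5 tumours ran most like those of Wfikkn2 were found by the root mean square distance between log2 CPM profiles, each centred on its own mean, among 14360 genes. They were Tmem132d, Zkscan16, Cdhr5, Tmem200a and Fam19a4, at distances of 0.56, 0.71, 0.77, 0.83 and 0.84, where the next gene, Fn3k, was at 0.85 and the median gene at 1.74. Tmem132d, a membrane protein best known from the nervous system, was at 16.4, 27.7 and 23.3 CPM in the LSN tumours, against 4.14 and 3.13 CPM in the vehicle tumours. Cdhr5, a cadherin of microvilli in gut epithelium, was at 14.7, 33.0 and 9.27 CPM with LSN, against 3.01 and 2.18 CPM with vehicle. Zkscan16, a zinc finger gene, and Fam19a4, a secreted chemokine-like peptide, were likewise higher in all 3 LSN tumours. None of the 5 lies on chromosome 11, and being chosen by their values they carry no test.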

How the data were processed

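Bulk RNA-seq of 3 LSN and 2 vehicle tumours was used. Per the labels' protocols, libraries were made with a non-stranded kit, paired ends of 150 bases were mapped to mm10 with STAR, and DESeq2 was used by the authors. The authors deposited raw read counts per gene. The sources used here do not give the STAR version, the counting program or the annotation. Start and end matched GENCODE M21 for 9 of the 10 genes, all but Wfikkn1.

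Groups came from the treatment label. Counts were fitted with edgeR 4.0.16 in R 4.3.3 (robust quasi-likelihood F test, TMM, filterByExpr with a minimum count of 10 and total of 15, 3 residual degrees of freedom), which kept 17906 genes, with p-values adjusted over all of them at 0.05. The SE of a log2 fold change is its size divided by the square root of F. With no word on separate animals, p-values cover only the spread of these samples, which may be technical. CPM per kilobase used the deposited gene lengths. Alternatives were DESeq2 1.42.0, limma-voom (limma 3.58.1), RLE, total counts, other filters and leaving out each tumour. The scripts were tested on simulated data.

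The members, the lists and the rule for named genes were chosen with earlier results of these data known. The rule took all 10 members, the 3 genes of each list with the smallest p, 8 core genes, the 5 genes most like Wfikkn2 with a mean of at least 1 CPM (prior count 2 in log2 CPM) and its 2 nearest neighbours on each side. A few genes chosen this way are left out of the text.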

Additional observations from a re-analysis of the deposited data

How the results depend on the processing

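edgeR called 0 genes and 0 members under RLE scaling, total counts, either other filter, limma-voom and without any tumour, where a group left with 1 tumour is assumed to vary like the other. DESeq2 called 95 genes and 1 member, and, added after seeing the data, 468, 82 and 40 genes without LSN replicate 1, 2 and 3 and 140 and 37 without vehicle replicate 1 and 2, with 1 to 2 members. The cause of the difference between the tools was not tested. The log2 fold change of Wfikkn2 was 3.23 to 3.89 by edgeR and 3.24 to 3.91 by DESeq2 when each tumour was left out. Members with groups that did not overlap numbered 1 to 4 when each tumour was left out, Wfikkn2 always among them, where 14.5 to 24.8% of all genes lay above and 15.8 to 26.2% below. With neuroendocrine marker counts as denominator they were 2, Wfikkn2 and Fst, beside 0.642% of all genes above and 11.3% below. These alternatives were also added after seeing the data. With a prior count of 0.5, 4 of the 5 genes most like Wfikkn2 were shared. Of 175 other values, the fold changes of the other members and the medians of the lists, 8 moved by more than the spread between tumours and 25 changed sign, none of them called. Scaling by total counts moved the median of all genes by -0.09, and the other scalings by less. No paired analysis was possible because the labels number no replicates and nothing pairs an LSN with a vehicle tumour. The small number of tumours, and fewer than 60 reads of Fstl3 in any of them, limit the precision.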
